A study of Mus musculus with 20 samples.

Results

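Penk, Brinp3 and Arhgdib are 3 of the 35240 genes listed for these colonic organoid cultures, and they comprise 12 of 113193 transcripts. They were selected on the measured values: each was higher in Tnfr2-/- than in WT cultures, and Brinp3 also because its genotype difference widened with time in culture. Their genotype differences are therefore given as a description, with no test. The tests reported for them are the change with time within a genotype (Penk and Arhgdib only) and the difference between the 2 mice of a genotype, which played no part in the selection. All 3 passed the filter on low values (a mean of at least 1), as did 13539 genes in all.

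Colonic organoids (colonoids) are epithelial structures grown in a gel from crypts, the stem cell-bearing pits of the colon lining. Cultures came from the colon of WT mice (C57BL/6) and of Tnfr2-/- mice, which lack TNFR2, the tumour necrosis factor receptor encoded by Tnfrsf1b, in the whole body through the B6.129S2-Tnfrsf1b tm1Mwm/J allele. Both genotypes were handled alike: crypts were set in Matrigel under IntestiCult medium, passaged 5 times, put through a nylon mesh and seeded, and bulk RNA was sequenced on days 1, 2, 3, 5 and 7 post-passage (DPP). The series held 20 libraries, 2 per genotype and day, with the replicate number taken as the donor mouse (4 mice, 5 libraries from each). Per the methods, mice for the Matrigel cultures were 8 weeks old and of both sexes, and the sex of each mouse behind these libraries is not given in the sources used here. The deletion was present in every cell of the knockout culture and in the animal before it, so effects in the epithelium and in other cells of the culture cannot be told apart. Libraries from 1 mouse are repeated samples of it, so a genotype p-value that pools days is too small.

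Penk encodes proenkephalin, a precursor that is cut into enkephalins, short opioid peptides made by neurons and also by some mesenchymal and immune cells. Brinp3 belongs to a small family of proteins (bone morphogenetic protein/retinoic acid-inducible neural-specific proteins) described mainly in the nervous system. Arhgdib encodes a RhoGDI, an inhibitor that holds small GTPases, switches of the actin cytoskeleton, in the cytosol, and it is best known from blood cells. None of the 3 is a standard marker of colonic epithelium, and crypt cultures can carry over fibroblasts, the collagen-making cells of the tissue around the crypt, which are marked by genes such as Col3a1 and Pdgfra.

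The sequences below show what Penk codes for and where transcription of the other genes begins. Penk (ENSMUSG00000045573.9) lies on the minus strand at chr4:4133531-4138819 (GRCm38), and its main transcript Penk-201 has 2 exons. The stretch shown, chr4:4134073-4134348 on the minus strand, is 276 bases of coding sequence in exon 2 (GENCODE M21), written 5' to 3'. Capitals mark 4 of the 6 runs of codons that spell Met-enkephalin in the 804-base coding sequence, which also holds 1 run that spells Leu-enkephalin, 7 runs of 15 bases in all.
Penk-201 coding stretch: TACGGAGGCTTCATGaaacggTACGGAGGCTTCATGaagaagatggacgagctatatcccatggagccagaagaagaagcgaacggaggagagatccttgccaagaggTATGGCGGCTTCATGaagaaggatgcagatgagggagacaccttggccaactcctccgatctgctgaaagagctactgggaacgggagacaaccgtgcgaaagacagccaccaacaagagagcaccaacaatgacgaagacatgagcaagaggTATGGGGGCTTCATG
Enzymes of the secretory pathway free enkephalin peptides by cutting the precursor at basic residues. The match covers these codons alone and does not show where each peptide ends. The values below measure the RNA and not the peptides.

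Brinp3 (ENSMUSG00000035131.14) lies on the plus strand at chr1:146494760-146902472, and Arhgdib (ENSMUSG00000030220.13) on the minus strand at chr6:136923655-136941899. RefSeq windows of 300 bases (250 before the start of transcription and 50 after it, GRCm38.p6) are shown for the start of Brinp3-205, the transcript with the highest values of that gene, at chr1:146497437-146497736 on the plus strand, and for the starts of Arhgdib-202, chr6:136941850-136942149, and Arhgdib-203, chr6:136941454-136941753, both on the minus strand. The Arhgdib starts shown are those of the transcripts with the largest share in WT mouse 1 (Arhgdib-202) and in Tnfr2-/- mouse 1 (Arhgdib-203). In WT mouse 2 the largest share was that of Arhgdib-205, which starts at chr6:136941868, inside the Arhgdib-202 window. In Tnfr2-/- mouse 2 it was that of Arhgdib-201, which starts at chr6:136941756. The shares were not tested. Capitals mark matches, on either strand, to 3 motifs common to many promoters, the letters CCAAT, those of a short TATA element (TATAAA) and those of a GC box (GGGCGG).
Brinp3-205 start: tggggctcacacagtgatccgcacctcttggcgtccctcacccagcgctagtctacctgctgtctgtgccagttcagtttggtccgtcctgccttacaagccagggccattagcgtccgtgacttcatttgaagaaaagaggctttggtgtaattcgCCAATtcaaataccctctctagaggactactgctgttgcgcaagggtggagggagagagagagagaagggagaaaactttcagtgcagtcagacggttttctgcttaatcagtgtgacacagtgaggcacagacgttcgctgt
Arhgdib-202 start: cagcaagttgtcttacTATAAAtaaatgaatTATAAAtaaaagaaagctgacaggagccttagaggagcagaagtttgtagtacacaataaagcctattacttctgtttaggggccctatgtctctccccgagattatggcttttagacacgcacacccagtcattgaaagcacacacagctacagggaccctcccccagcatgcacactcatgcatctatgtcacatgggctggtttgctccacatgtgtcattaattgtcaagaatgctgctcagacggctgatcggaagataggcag
Arhgdib-203 start: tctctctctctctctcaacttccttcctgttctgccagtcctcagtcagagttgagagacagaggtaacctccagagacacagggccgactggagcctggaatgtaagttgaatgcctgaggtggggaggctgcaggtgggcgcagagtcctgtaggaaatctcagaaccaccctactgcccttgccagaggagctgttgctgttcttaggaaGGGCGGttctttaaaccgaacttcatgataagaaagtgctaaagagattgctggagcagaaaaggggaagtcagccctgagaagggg
The Brinp3 window held 1 CCAAT, 93 bases before the start, a motif found in 37.4% of all 32851 windows. The Arhgdib-202 window held 2 copies of TATAAA, 234 and 219 bases before the start, against 13.6% of windows with any, and the Arhgdib-203 window held GGGCGG 37 bases before the start, against 35.7%. The letters of the AP-1 site (TGACTCA, in 5.2% of windows), the CRE (TGACGTCA, in 1.79%) and an E-box (CACGTG, in 7.15%) were in none of the 3 windows. The searched motifs do not overlap one another.

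Values are transcript abundances scaled for transcript length (TPM) and divided by a size factor per library, summed per gene and here called normalised expression. Library sums ranged from 900655 to 1111080, and between 13007 and 13469 genes per library reached a value of 1. The targeted gene Tnfrsf1b had 11.1 to 21.9 units in WT and 2.71 to 11.5 in Tnfr2-/- libraries, so the highest knockout library exceeded the lowest WT library. Epithelial markers were high in both genotypes (Krt8 3788 to 6607 units in WT and 3463 to 6350 in Tnfr2-/-). The summed level of the 16 fibroblast genes lay between 1475 and 4702 units in WT and between 3171 and 8193 in Tnfr2-/-, and 15 of them were above 0 in all 20 libraries (Fap was listed at 0 in Tnfr2-/- mouse 1 on 1 DPP), so every library held fibroblast RNA. In bulk samples fewer cells of a type and less RNA per cell cannot be told apart.

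Penk was the most abundant of the 3 genes. In WT mouse 1 it measured 107, 32.6, 6.35, 4.90 and 27.2 units on 1, 2, 3, 5 and 7 DPP, and in WT mouse 2 it measured 101, 42.8, 6.45, 7.78 and 9.67. In Tnfr2-/- mouse 1 it measured 243, 99.4, 65.3, 192 and 146 units, and in Tnfr2-/- mouse 2 221, 105, 49.3, 115 and 118. Both genotypes were highest on 1 DPP and went down to 3 DPP. From there the knockout cultures came back to over 114 units on both late days, and the WT cultures stayed under 28.

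The WT decline of Penk was larger than the spread between replicates. From the early days (1 to 3 DPP, n = 6) to the late days (5 and 7 DPP, n = 4) the mean went from 49.3 ± 44.7 to 12.4 ± 10.1 units (SD), and Penk fell by 1.47 on the log2(value + 1) scale (SE 0.24, 95% interval -1.98 to -0.97, adjusted p = 0.00113, limma). The decrease was present in both mice (-1.21 and -1.73). In this comparison 20.1% of all genes tested were called at an adjusted p under 0.05. In Tnfr2-/- cultures the same contrast was 0.33 (SE 0.24, 95% interval -0.17 to 0.84, adjusted p = 0.361, limma), with 20.3% of genes called. The SD of the early WT group is wide because Penk moved from over 100 to under 7 units within these 3 days.

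Brinp3 ran lower. In WT mouse 1 it measured 12.6, 4.45, 1.52, 0 and 1.64 units over the 5 days, and in WT mouse 2 9.81, 6.71, 1.16, 0.595 and 1.08. In Tnfr2-/- mouse 1 it measured 12.6, 12.9, 14.1, 17.2 and 34.1 units, and in Tnfr2-/- mouse 2 17.0, 19.6, 7.51, 20.5 and 24.9. The genotypes began close together, with 12.55 units in the highest WT and 12.6 in the lowest knockout library on 1 DPP. They then moved apart, because the WT values went down to near 0 while the knockout values were highest on 7 DPP in both mice. The late minus early contrast was -1.72 (SE 0.22) in WT and 0.76 (SE 0.22) in Tnfr2-/- on the log2 scale, given with no test because Brinp3 was known for this divergence. WT mouse 1 is listed at 0 on 5 DPP, so no fold is given for that day.

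Arhgdib was low in all WT libraries. WT mouse 1 had 3.54, 2.09, 0.878, 1.02 and 0.947 units over the 5 days, and WT mouse 2 had 3.13, 5.05, 0.704, 0.532 and 0.962. Tnfr2-/- mouse 1 had 13.7, 10.1, 6.18, 10.4 and 34.6 units, and Tnfr2-/- mouse 2 had 22.8, 16.0, 18.7, 12.5 and 19.0. The genotypes did not overlap: the highest WT library (5.05) was below the lowest knockout library (6.18), as for 20 of the 13539 genes tested (0.148%). Nothing is read from this, since Arhgdib was selected for its higher values in the knockout. The change from early to late days was -0.80 in WT (SE 0.30, 95% interval -1.45 to -0.15, adjusted p = 0.0788, limma) and 0.33 in Tnfr2-/- (SE 0.30, 95% interval -0.32 to 0.98, adjusted p = 0.499, limma), neither past the threshold. The WT decline lay near the threshold: Arhgdib passed it with a pseudocount of 0.5 (adjusted p = 0.0498), without the library of WT mouse 1 on 2 DPP (0.0481) and without that of Tnfr2-/- mouse 1 or mouse 2 on 3 DPP (0.0443 and 0.0453). The mice of the knockout did not move alike, with a late minus early difference of 0.94 in mouse 1 and -0.28 in mouse 2.

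**Figure D1:**
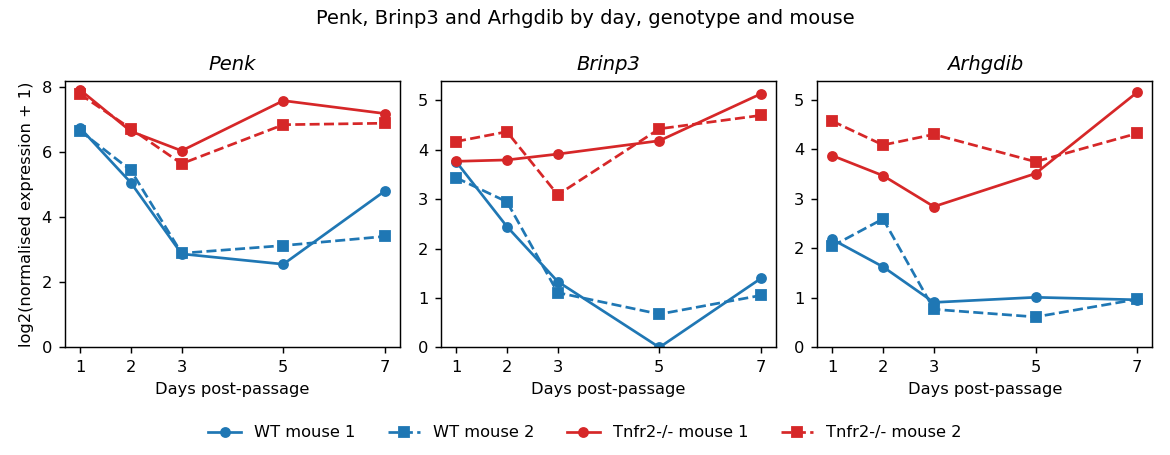
Penk, Brinp3 and Arhgdib, in log2(normalised expression + 1), against days post-passage, with 1 line per mouse (blue WT, red Tnfr2-/-, circles and solid lines mouse 1, squares and dashed lines mouse 2). The red lines lie above the blue lines on every day, and for Brinp3 they start together on 1 DPP (12.55 units in the highest WT and 12.6 in the lowest knockout library) and end apart on 7 DPP (1.64 against 24.9).

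Set side by side, the genotype differences that the selection used were of like size. Over all days the fitted Tnfr2-/- minus WT difference was 2.57 for Penk (SE 0.31), 2.34 for Brinp3 (SE 0.35) and 2.62 for Arhgdib (SE 0.25) on the log2(value + 1) scale, which ranked them 7th, 12th and 6th of 13539 genes. At the late days it was 3.65, 3.83 and 3.29. By day the difference of Penk was 1.15, 1.43, 2.97, 4.38 and 2.93, that of Brinp3 0.37, 1.38, 2.28, 3.97 and 3.69, and that of Arhgdib 2.11, 1.67, 2.74, 2.82 and 3.77. On each of the 5 days both knockout libraries exceeded both WT libraries for all 3 genes, as they did for 135 of the 13539 genes tested (0.997%). For genotype 7.6% of all genes were called over all days and 6.45% at the late days. These values follow from the choice of the genes. The genes differed in when the gap was there: on 1 DPP Arhgdib was already 5.47-fold higher in mean value in the knockout, Penk 2.23-fold and Brinp3 1.32-fold.

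At the level of single transcripts the excess was spread in different ways. Penk-201 held 81.5% of the Penk signal in WT and 81.2% in Tnfr2-/-, while its mean level went from 28.2 ± 32.5 to 110 ± 46.3 units (SD, n = 10 libraries). Brinp3-205 led in both genotypes with 48.8% in WT and 54.5% in Tnfr2-/-, and the shorter Brinp3-204 held 24.3% and 23.1%. Arhgdib was different. Arhgdib-202 held 83.7% of the summed signal of WT mouse 1. It held all of it on 1, 3, 5 and 7 DPP, but 0.712 of 2.09 units on 2 DPP, where the rest was Arhgdib-204 (1.38 units). It was at 0 in all 5 libraries of WT mouse 2. In WT mouse 2 Arhgdib-205 held 49.3%, Arhgdib-203 21.2% and Arhgdib-204 18.4%. In the knockout Arhgdib-203 held 45.9%, Arhgdib-201 25.0% and Arhgdib-205 21.9%, against 2.99% for Arhgdib-202. The knockout mice differed here too: Arhgdib-203 held 62.2% in mouse 1, while in mouse 2 it held 32.2% and was at most 0.00122 units on 5 and 7 DPP, with Arhgdib-201 at 36.1%. The WT values behind these shares are near 1 unit, and transcripts of 1 gene can exchange reads in pseudoalignment, so the shares were not tested.

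**Figure D2:**
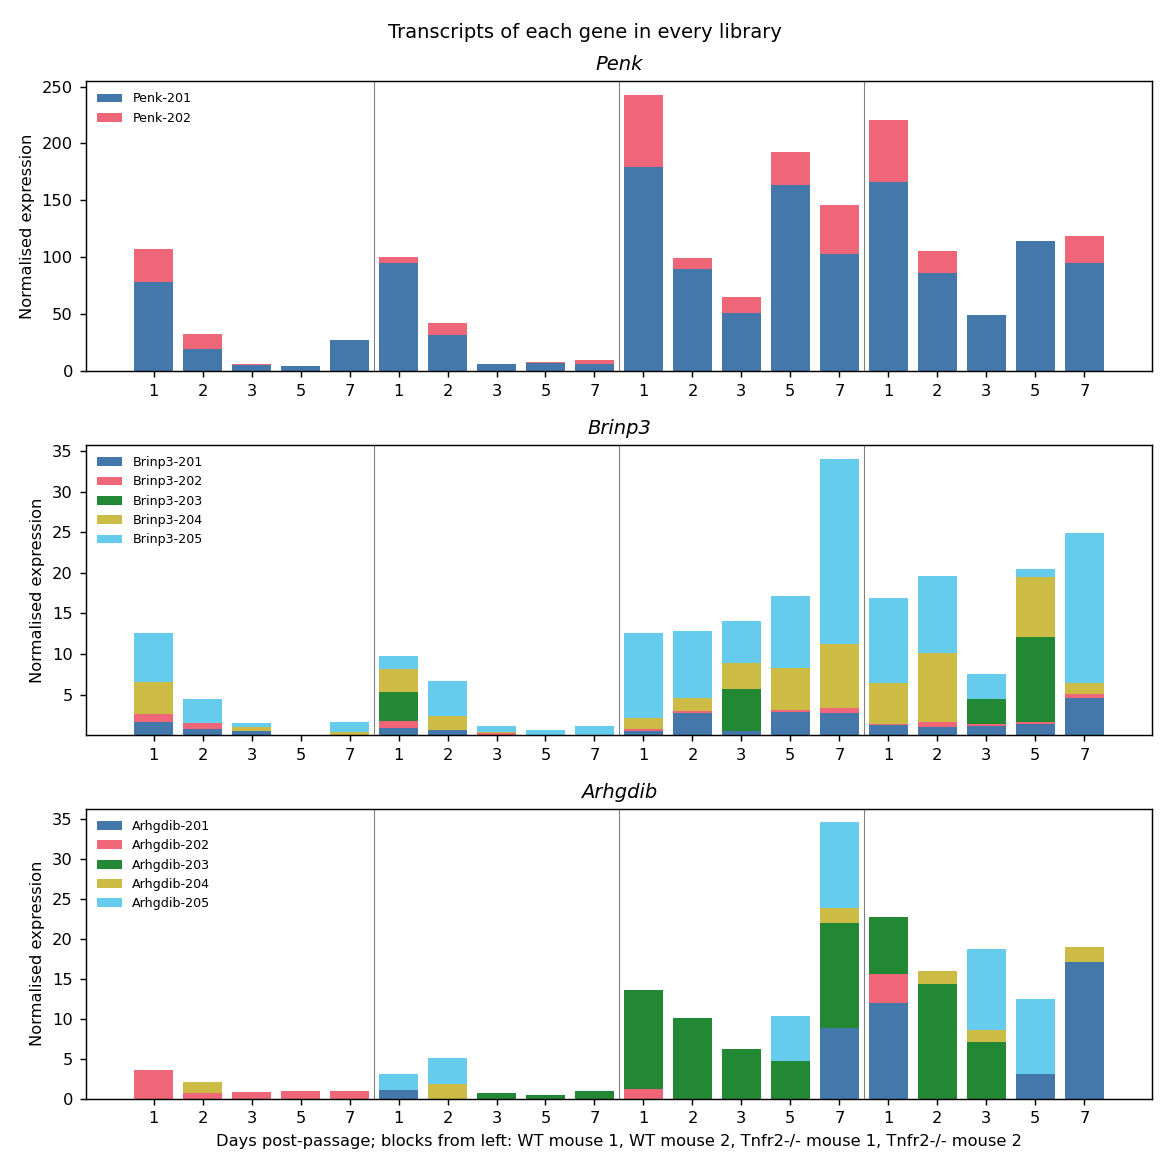
Stacked bars give the normalised expression of each annotated transcript in every library, with days post-passage along the x axis in 4 blocks (WT mouse 1, WT mouse 2, Tnfr2-/- mouse 1, Tnfr2-/- mouse 2). Penk-201 fills most of every Penk bar, and the Arhgdib bars of WT mouse 1 are Arhgdib-202 on every day but 2 DPP. That transcript is at 0 in every library of WT mouse 2 and has 2.99% of the signal in Tnfr2-/-.

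Parts of these genes lie across from other genes. Pde6h, a gene on the opposite strand that overlaps Arhgdib, measured 0 to 0.444 units in WT and 0 to 22.2 in Tnfr2-/- libraries. Its top value came from 1 library, Tnfr2-/- mouse 2 on 2 DPP, and the other knockout libraries had at most 4.57 units. The library kit marks strand, but whether quantification used it is not given in the sources used here. The pseudogene Gm15583 inside Brinp3, on the same strand, reached 1.89 units. The part of either in the values of Arhgdib and Brinp3 was not tested.

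Col3a1 and Pdgfra had no genotype call over all days, while some other fibroblast genes did. Col3a1, a fibrillar collagen, measured 2104, 1726, 1052, 410 and 549 units in WT mouse 1 and 1833, 2182, 1881, 1446 and 1716 in WT mouse 2. In Tnfr2-/- it measured 906, 1213, 1175, 870 and 1946 units in mouse 1 and 1277, 1800, 1472, 1216 and 2109 in mouse 2. The fitted genotype difference of Col3a1 over all days was 0.02 on the log2 scale (adjusted p = 0.971, limma). For Pdgfra, a growth factor receptor of fibroblasts, it was -0.10 (adjusted p = 0.808), with 20.6 to 99.7 units in WT and 32.4 to 83.2 in Tnfr2-/-. For both genes the 2 WT libraries were above the 2 knockout libraries on 1 DPP and below them on 7 DPP, and the genotypes overlapped on 2, 3 and 5 DPP.

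Of the 16 fibroblast genes, 4 were called higher in Tnfr2-/- over all days and none lower, where 7.6% of all genes were called. They were Dcn (decorin, a matrix proteoglycan, 1.65, adjusted p = 0.00101), Thy1 (1.37, adjusted p = 0.0156), Prrx1 (a mesenchymal transcription factor, 0.95, adjusted p = 0.0101) and Twist1 (another, 0.94, adjusted p = 0.0298). The median difference of the list was 0.23, beside -0.03 over all genes tested. At the early days it was -0.06 and at the late days 0.65 (14 of 16 positive), beside -0.05 over all genes at the late days. The late minus early genotype effect was positive for 15 of 16, with a median of 0.73 beside -0.03 over all genes, and 1 of the 16 was called. At the late days 3 of 16 were called higher, Dcn (2.74), Twist1 (1.75) and Prrx1 (1.47), against 6.45% of all genes. When the mice were treated as a correlated block 3 of 16 were called over all days (Twist1 was lost) and 545 genes in place of 1029, and on the means of each mouse, 2 against 2, 0 of 16 and 7 genes in all, with 1522 genes at an unadjusted p under 0.05. In that last fit limma called 0 genes at the late days (1859 at an unadjusted p under 0.05), where 873 were called with libraries as units. The call of Twist1 over all days was also lost in 6 of 20 fits without 1 library, and that of Prrx1 at the late days without Tnfr2-/- mouse 2 on 5 DPP (adjusted p = 0.051). The all-days difference of Thy1 came mostly from Tnfr2-/- mouse 2, without which it was 0.56 in place of 1.37. Over the 20 fits without 1 library the all-days count ranged from 3 to 5. The late count ranged from 2 (without Tnfr2-/- mouse 2 on 5 DPP) to 7 (without WT mouse 2 on 5 DPP). Of the 1029 genes 611 were higher in Tnfr2-/-, and after scaling all libraries to the same sum 426 of 1150 were.

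Dcn came closest to the pattern of the selected genes, and it was singled out after its values were seen. It measured 787, 512, 244, 135 and 402 units in WT mouse 1 and 1026, 568, 388, 297 and 400 in WT mouse 2, against 1231, 756, 774, 1493 and 2551 in Tnfr2-/- mouse 1 and 1240, 1068, 1105, 1573 and 2164 in mouse 2. Dcn fell in WT from early to late days by 0.90 (adjusted p = 0.00775, limma) and rose by 0.91 in Tnfr2-/- (adjusted p = 0.00696). Twist1 fell in WT by 1.21 (adjusted p = 0.00909, and 0.0551 without WT mouse 1 on 7 DPP), and its difference in Tnfr2-/- was 0.14 (adjusted p = 0.765). Thy1 went the other way in WT and was called higher (2.00 and 1.12 in mouse 1 and 2), a call lost without a filter (adjusted p = 0.0939). In WT 3 of 16 fibroblast genes were thus called over time, against 20.1% of all genes. In Tnfr2-/- 4 of 16 were called, all higher (Col1a1, Col1a2, Dcn and Prrx1), against 20.3%. The late minus early difference of the genotype effect was 1.81 for Dcn (adjusted p = 0.0403), a comparison in which 0.148% of genes were called. That call was lost in 14 of the 20 fits without 1 library and on mouse means (adjusted p = 0.0921).

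**Figure D3:**
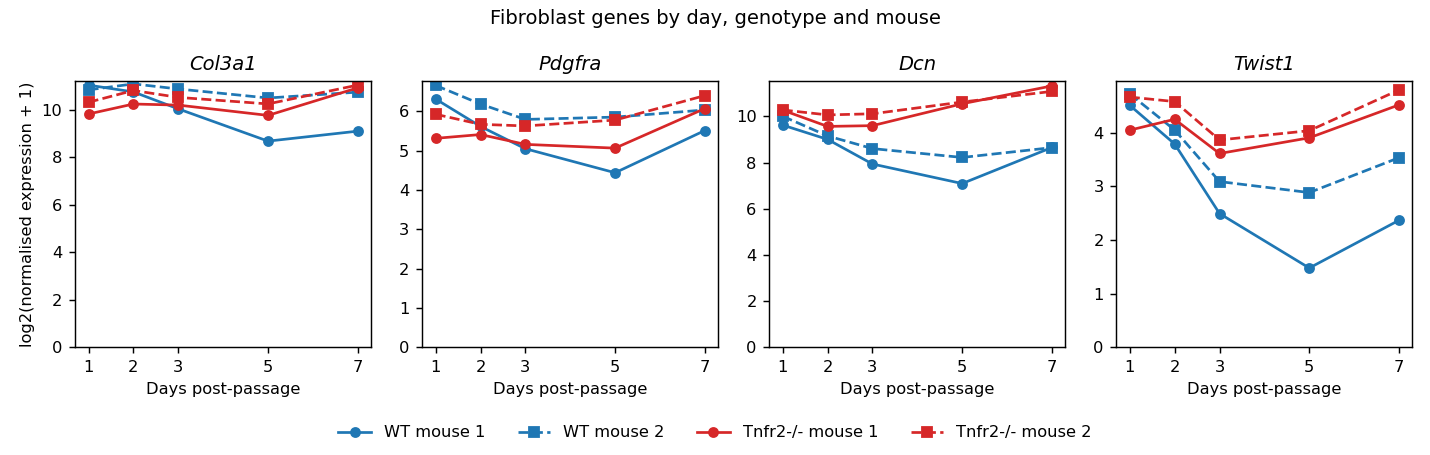
Col3a1, Pdgfra, Dcn and Twist1, in log2(normalised expression + 1), against days post-passage, with colours and markers for genotype and mouse. Col3a1 and Pdgfra cross between genotypes and are lowest in WT mouse 1 on 5 DPP (410 and 20.6 units), while Dcn of both knockout mice lies above both WT mice on every day.

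Over the 10 libraries within a genotype the 3 genes followed the fibroblast genes to different degrees. The values that follow are Pearson correlations of log2(value + 1) over 10 libraries of 2 mice, which share days and mice and are not independent, and they carry no test. In WT, Penk correlated with Col3a1 at 0.45 and with Pdgfra at 0.72, Brinp3 at 0.64 and 0.75, and Arhgdib at 0.49 and 0.56. In Tnfr2-/-, Penk correlated with Col3a1 at -0.33 and with Pdgfra at 0.04, Brinp3 at 0.49 and 0.57, and Arhgdib at 0.62 and 0.76. Across all genes tested the median correlation lay between -0.036 and 0.0446 for each gene and genotype. In the knockout Arhgdib thus had the highest values and Penk the lowest.

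With the mean log2 level of the whole fibroblast list the correlations in WT were 0.31 for Penk, 0.43 for Brinp3 and 0.31 for Arhgdib, and in Tnfr2-/- they were -0.26, 0.51 and 0.68. These moved with single libraries: leaving out 1 gave 0.05 to 0.44, 0.14 to 0.58 and 0.18 to 0.43 in WT, and -0.48 to -0.02, 0.37 to 0.88 and 0.60 to 0.76 in Tnfr2-/-. In WT 12, 13 and 13 of the 16 genes correlated positively with Penk, Brinp3 and Arhgdib, and in Tnfr2-/- 4, 14 and 15 did, where 47.5% to 52.9% of all genes had a positive sign. Single genes of the list ranged widely in WT. Dcn stood at 0.89 with Penk, 0.91 with Brinp3 and 0.71 with Arhgdib (0.39, 0.73 and 0.71 in Tnfr2-/-), and Twist1 at 0.82, 0.90 and 0.75. Col1a1, the main collagen gene of fibroblasts, stood at -0.60, -0.54 and -0.54. The likeness was not to fibroblast genes alone. In Tnfr2-/- Brinp3 had a median correlation of 0.69 with the 5 smooth muscle and myofibroblast genes (5 of 5 positive, up to 0.88 for Actg2) and of 0.59 with the 4 enteroendocrine genes (4 of 4, up to 0.81 for Chgb), beside 0.48 with the fibroblast genes. Arhgdib stood there at 0.51 with the smooth muscle genes (5 of 5) and 0.63 with the fibroblast genes. In WT the medians of both genes with the smooth muscle list were 0.06, and with the enteroendocrine list -0.25 for Brinp3 and -0.18 for Arhgdib. Among themselves the 3 genes correlated at 0.94 (Penk and Brinp3), 0.84 (Penk and Arhgdib) and 0.88 (Brinp3 and Arhgdib) in WT, and at 0.41, 0.26 and 0.44 in Tnfr2-/-.

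The correlations were also taken within days. When the mean of each day was subtracted, so that only the difference between the mice was left, the correlation with the fibroblast list went to -0.24 for Penk, 0.25 for Brinp3 and -0.06 for Arhgdib in WT, and to -0.77, -0.04 and 0.70 in Tnfr2-/-. Of these 6 values, that of Arhgdib in the knockout was the highest. In that genotype mouse 1 was below mouse 2 in the fibroblast mean on 5 of 5 days and in Arhgdib on 4 of 5, while Penk was higher in mouse 1 on 4 of 5.

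**Figure D4:**
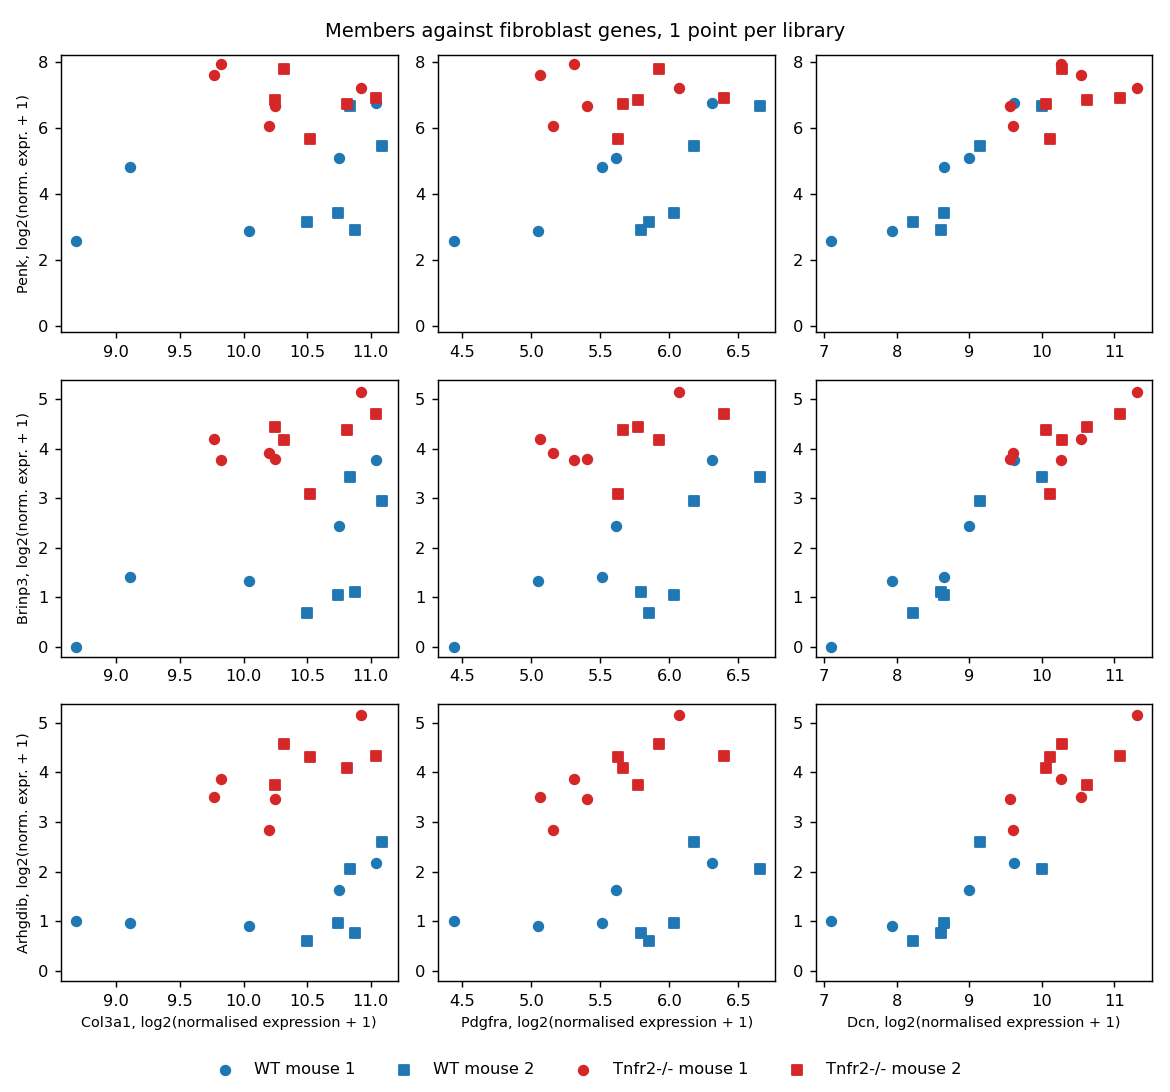
Each point is a library, with the log2(normalised expression + 1) of Penk, Brinp3 or Arhgdib on the y axis against Col3a1, Pdgfra or Dcn on the x axis (blue WT, red Tnfr2-/-, circles mouse 1, squares mouse 2). Against Col3a1 and Pdgfra the red points lie mostly above the blue points at like x values, while against Dcn points of both colours rise from left to right, with correlations within WT of 0.89, 0.91 and 0.71 and within Tnfr2-/- of 0.39, 0.73 and 0.71.

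The genotype gap was also computed per fibroblast signal, and its size depended on the reference gene. The mean log2 level of the fibroblast list was 0.36 higher in Tnfr2-/- over all days and 0.79 higher at the late days. The log2 level of Penk minus that mean was -1.92 ± 1.52 in WT and 0.29 ± 0.95 in Tnfr2-/- (SD, n = 10), a gap of 2.21 in place of 2.57. For Brinp3 the gap was 1.98 in place of 2.34, and for Arhgdib 2.26 in place of 2.62. Against Col3a1 the gaps were 2.55, 2.31 and 2.60, and against Pdgfra 2.67, 2.44 and 2.72. Against Dcn alone they were 0.92, 0.69 and 0.97, and at the late days 0.92, 1.09 and 0.56 in place of 3.65, 3.83 and 3.29. These are descriptions, since each contains the difference the genes were selected for, and the part of the fibroblast share in that difference was not tested.

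The 2 WT mice gave a comparison that the selection did not use. Fibroblast genes were lower in mouse 1: 9 of 16 were called lower and none higher, against 8.09% of all genes, with a median difference of -0.72 beside 0.01 over all genes. The gap was not constant: on 1, 2, 3, 5 and 7 DPP the mean of the list differed by 0.03, -0.45, -0.80, -1.17 and -1.11. Of 5 smooth muscle and myofibroblast genes 2 were called lower too (Acta2 and Tagln), with a median of -1.06. Col3a1 was 0.89 lower (95% interval -1.40 to -0.38, adjusted p = 0.0393, limma, lost in 16 of 20 fits without 1 library), Pdgfra 0.72 lower (-1.02 to -0.42, adjusted p = 0.00907) and Dpt 1.24 lower (adjusted p = 0.00182), the last 2 called in all 20. None of the 3 selected genes was called. Mouse 1 minus mouse 2 was 0.10 for Penk (95% interval -0.39 to 0.60, adjusted p = 0.840), -0.06 for Brinp3 (-0.56 to 0.45, adjusted p = 0.923) and -0.06 for Arhgdib (-0.69 to 0.57, adjusted p = 0.931). None of these 3 intervals reached the estimates of Col3a1 or Pdgfra, though those of Brinp3 and Arhgdib overlap the intervals of both and that of Penk overlaps the interval of Col3a1 alone. Dcn was 0.46 lower in mouse 1 (-0.80 to -0.13, adjusted p = 0.0894), an estimate inside the intervals of Brinp3 and Arhgdib. The difference between these genes and the fibroblast genes was not tested. Without the library of WT mouse 1 on 5 DPP, the lowest in Col3a1, 4 of 16 fibroblast genes and 455 genes in all were called in place of 1095.

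Between the Tnfr2-/- mice 1 of 16 fibroblast genes was called (Thy1, 1.63 lower in mouse 1, adjusted p = 0.0327, limma, lost in 16 of 20 fits without 1 library), where 0.096% of all genes were called, although 15 of 16 were lower in mouse 1, with a median of -0.54. The differences were 0.30 for Penk (95% interval -0.20 to 0.80, adjusted p = 0.944), 0.01 for Brinp3 (-0.50 to 0.52, adjusted p = 1) and -0.44 for Arhgdib (-1.06 to 0.19, adjusted p = 0.907).

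**Figure D5:**
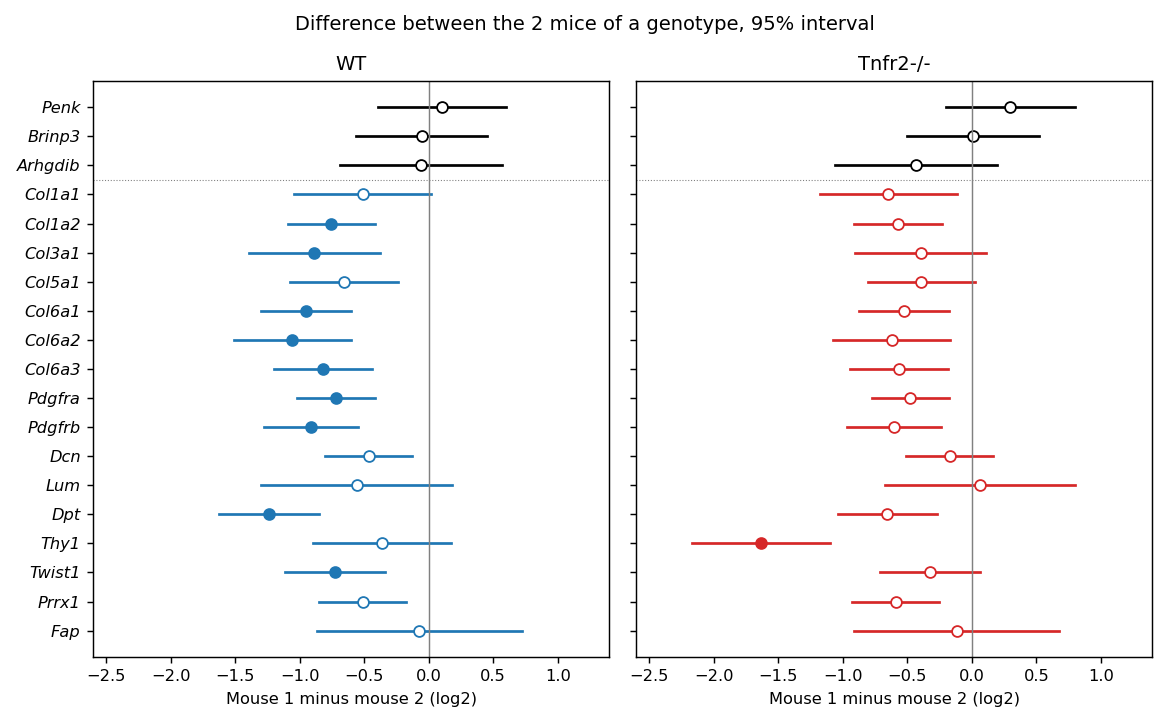
Mouse 1 minus mouse 2 within each genotype, on the log2 scale, for the 3 selected genes (black) and the 16 fibroblast genes (blue in WT, red in Tnfr2-/-), with 95% intervals as lines. Filled points passed an adjusted p of 0.05. In WT 9 fibroblast genes are filled, all left of 0, and the black points lie at 0.10, -0.06 and -0.06.

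Markers of leukocytes, enteric neurons and glia, and endothelium were low, while some of those of smooth muscle and enteroendocrine cells were not. Of 11 leukocyte genes, where Arhgdib is best known, 2 passed the filter on low values. Cd53 (0 to 2.30 units in WT, 1.74 to 4.46 in Tnfr2-/-) was called higher in the knockout over all days (1.02, adjusted p = 0.0226, limma), as was Csf1r, a macrophage receptor (0.76, adjusted p = 0.0285, lost in 5 of 20 fits without 1 library and with mice as a correlated block), where 7.6% of all genes were called. On mouse means neither was called. The list summed to between 1.46 and 7.67 units in WT and between 4.30 and 12.3 in Tnfr2-/-. Ptprc, which encodes the pan-leukocyte antigen CD45, stayed at or below 0.753 units in every library, Cd3e at or below 0.490, and Cd79a at or below 0.759. The part of these cells in the Arhgdib values was not tested.

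None of the 6 enteric neuron and glia genes passed the filter, and the list summed to at most 3.36 units. Of 4 endothelial genes only Pecam1 passed (0.05 for genotype, adjusted p = 0.915), and the list summed to at most 4.24 units. The enteroendocrine list summed to between 1.74 and 353 units in WT and between 4.09 and 119 in Tnfr2-/-, led by the hormone gene Pyy (up to 271 and 107 units). Of 4 tested enteroendocrine genes 2 were called lower in Tnfr2-/- over all days, against 7.6% of all genes, Chga (-1.56, adjusted p = 0.0225) and Gcg. Both passed the filter on low values only through WT (means of 7.63 and 2.02 units, against 0.972 and 0.104 in Tnfr2-/-), so this count is no support for a difference. Gcg was at 0 in 9 of 10 knockout libraries, its call was lost in 15 of 20 fits without 1 library and with mice as a correlated block (adjusted p = 0.0887), and neither was called on mouse means. All 4 were called higher in WT mouse 1, against 8.09% of all genes (Gcg was lost in 8 of 20 fits without 1 library). The smooth muscle and myofibroblast list summed to between 15.3 and 145 units in WT and between 33.9 and 269 in Tnfr2-/-, with Tagln, an actin-binding protein, at up to 76.5 and 156 units. Acta2 reached 58.6 and 92.8 units, while Cnn1 stayed at or below 5.99 units in every library, Myh11 at or below 2.82 and Des at or below 0.947. Of the genes of this list 0 of 5 tested were called for genotype by limma over all days or at the late days, and 0 had an unadjusted p under 0.05. Of 7 epithelial genes 2 were called over all days, against 7.6% of all genes, Epcam (0.36, adjusted p = 0.0335) and Cdh1 (0.25, adjusted p = 0.0221). Neither was called with mice as a correlated block or on mouse means, and Epcam was lost in 10 of 20 fits without 1 library.

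Other parts of the opioid system were looked up for Penk. Of the sister precursors Pdyn was at 0 in every library, Pomc reached 1.98 units and Pnoc 0.52. The receptors Oprm1, Oprd1 and Oprk1 reached at most 0.241 units and Oprl1 was at 0, while Ogfr, the opioid growth factor receptor, measured 32.6 to 61.7 units in every library, with a genotype difference of -0.13 (adjusted p = 0.392, limma). Penk was the 1 opioid precursor gene that passed the filter. Of the neuroendocrine convertases that cut such precursors, Pcsk1 reached 4.46 units and Pcsk2 0.885, both under the filter on their mean.

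Genes of later steps of enkephalin handling had higher levels. Of the 7 tested genes of the opioid list, Ogfr included, 4 were called higher in Tnfr2-/- over all days, against 7.6% of all genes, with a median difference of 0.54 beside -0.03 over all genes. Cpe, which trims cut peptides, was 0.54 higher (121 to 364 units in WT, 277 to 388 in Tnfr2-/-, adjusted p = 0.0225, limma). Ctsl, a protease also able to cut proenkephalin, was 0.64 higher (593 to 2106 and 1286 to 2503 units, adjusted p = 0.0221). Of the peptidases that degrade enkephalins, Ace was 1.41 higher (7.78 to 20.3 and 27.9 to 55.5 units, adjusted p = 6.6e-05) and Anpep 1.09 higher (adjusted p = 0.0236). Ace did not overlap between genotypes, where 0.148% of all genes had every knockout library above every WT library. Mme, the peptidase neprilysin, was -0.13 different (adjusted p = 0.857), and Dpp3 0.07 (adjusted p = 0.606). In WT Mme rose from early to late days by 1.34 (adjusted p = 0.0326, lost in 7 of 20 fits without 1 library) and Anpep by 0.90 (adjusted p = 0.00757), while Penk fell. With mice as a correlated block Anpep lost its genotype call, and on mouse means all 4 did. Cpe and Ctsl also differed between the mice of 1 genotype. Both were called lower in WT mouse 1 than in WT mouse 2, 2 of 7 tested against 8.09% of all genes. The median of the 7 genes there was -0.51, beside 0.01 over all genes.

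No family relative of Brinp3 or Arhgdib was called for genotype. Brinp1 measured 1.06 to 11.8 units in WT and 1.10 to 6.57 in Tnfr2-/-, with a genotype difference of -0.44 (adjusted p = 0.315, limma), and Brinp2 reached 0.322 units. Brinp1 followed Brinp3 over the WT libraries at a correlation of 0.83 and over the knockout libraries at 0.56. Arhgdia, the widely expressed RhoGDI, measured 299 to 463 units in WT and 289 to 492 in Tnfr2-/-, above Arhgdib in every library, with a genotype difference of 0.10 (adjusted p = 0.377). Arhgdia fell from early to late days by 0.34 in WT (adjusted p = 0.0251, lost in 5 of 20 fits without 1 library) and by 0.44 in Tnfr2-/- (adjusted p = 0.00642). On mouse means neither fall was called (adjusted p = 0.108 and 0.0589). Arhgdig measured 8.12 to 25.0 units and fell in Tnfr2-/- by 0.76 (adjusted p = 0.0119), which was not called on mouse means.

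Among the small GTPases that a RhoGDI holds, 1 of 7 tested was called for genotype over all days, against 7.6% of all genes. It was Rhob, 0.84 higher in Tnfr2-/- (adjusted p = 0.00448, limma), which also rose with time by 2.15 in WT (adjusted p = 8.4e-05) and 2.40 in Tnfr2-/- (adjusted p = 4.6e-05). Rac1, Rhoa and Cdc42 differed by 0.10 to 0.15 with no call. Rac3 rose in WT by 0.99 (adjusted p = 0.0059) and Rhoc in Tnfr2-/- by 0.77 (adjusted p = 0.00765). Rac2 and Rhoh, the GTPases of blood cells, stayed at or below 0.440 units in every library.

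AP-1 and CREB factors, which are known to act on the Penk promoter in neurons, were partly higher in the knockout. Of 10 genes 3 were called over all days, against 7.6% of all genes, Fosl1 (0.53, adjusted p = 0.0474, limma), Jun (0.52, adjusted p = 0.000783) and Junb (0.45, adjusted p = 0.0106), and none lower. At the late days 4 were called, against 6.45% of all genes, with Atf3 (0.86, adjusted p = 0.0226) beside these. The late calls of Atf3, Jun and Junb were lost in 6, 7 and 5 of 20 fits without 1 library, and 1 of the 4 was left without Tnfr2-/- mouse 1 on 5 DPP. Fosl1 measured 14.8 to 67.2 units in WT and 28.9 to 60.4 in Tnfr2-/-. It fell in WT by 1.22 (adjusted p = 0.000188), where its correlation was 0.85 with Penk, 0.95 with Brinp3 and 0.90 with Arhgdib over the 10 libraries, and its change in Tnfr2-/- was -0.17 (adjusted p = 0.437). Fosl2 and Jun rose in both genotypes from early to late days, as did Fos (0.76 in WT and 0.73 in Tnfr2-/-, lost in 5 and in 7 of 20 fits without 1 library). On mouse means the rise of Fos was called in neither genotype. The call of Fosl1 over all days was lost in 13 of 20 fits without 1 library, with mice as a correlated block (adjusted p = 0.106) and after scaling to the same sum (0.0713), and on mouse means none of the 10 was called for genotype.

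The genes most alike to each selected gene were taken by the lower of the correlations within WT and within Tnfr2-/-, over 10 libraries each, so they are the highest values of a search over all genes tested. For Penk these were Spry2, an inhibitor of growth factor receptor signalling (0.96 in WT and 0.97 in Tnfr2-/-), Mmp12, a matrix metalloprotease (0.88 and 0.90), Ccdc71l (0.94 and 0.88), Spink2 (0.88 and 0.90) and Ifrd1 (0.92 and 0.87). Spry2 had a mean of 29.9 units in WT and 27.7 in Tnfr2-/-, and Ifrd1 200.7 and 221, so they followed the course of Penk over days without its step between genotypes. For Brinp3 they were Tpm4, a tropomyosin (0.87 and 0.82), Gpr137b (0.79 and 0.81), Ptprn, a protein of secretory granules (0.79 and 0.81), Stox2 (0.85 and 0.77) and Kcnj8, a potassium channel subunit (0.76 and 0.76). For Arhgdib they were Cavin2, a protein of caveolae (0.88 and 0.89), Slc16a14 (0.87 and 0.81), Hgf, a growth factor made by mesenchymal cells (0.80 and 0.78), Gkap1 (0.77 and 0.79) and Crispld2 (0.79 and 0.77). None of these 15 genes was in the fibroblast list.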

How the data were processed

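RNA from the 20 cultures was made into stranded libraries and read single-end. The submitters' processing notes name CASAVA, kallisto, sleuth and mm10, with no versions or settings. The authors deposited a table with a signal per transcript and library, which is TPM divided by size factors per library. Along with it they deposited p-values, q-values, a mean on the natural log scale and test statistics and variance terms of their own comparison (other columns), none of which was used. Since the deposited values were neither plain TPM nor counts, limma was used as planned for such a unit. The methods give 1 approximate read number for all samples, and the table holds no depth per library, so no counting interval is given.

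Of 113974 lines, 781 repeated a transcript and were dropped, and 199 transcripts without a symbol (at most 0.0989% of a library) were left out. Values were summed per symbol. Annotation was GENCODE M21 of GRCm38, and promoter windows were from RefSeq, with 3 windows each for Brinp3 and Arhgdib. Genes with a mean of at least 1 were analysed as log2(value + 1) with limma 3.58.1 under R 4.3.3, letting the prior variance follow the mean, and p-values were adjusted over 13539 genes by Benjamini-Hochberg. The pseudocount makes fold changes of low genes too small. The fit was tested on simulated data. The genotype effect over all days used day as a factor; other contrasts came from means per genotype and day, and the mouse contrasts from a fit with mouse within genotype. The members and lists were chosen with earlier results of these data known. Named genes were the 3 members, the fibroblast list, family relatives, called genes of the other lists and the 5 most alike genes per member.

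The pairing of libraries by mouse comes from the replicate number in the sample titles, which matches the number in their descriptions. The mouse 1 minus mouse 2 differences of all genes correlated between days at 0.0997 to 0.307 in WT and at -0.0511 to 0.08 in Tnfr2-/-, across genes that are not independent. So libraries of 1 number deviated together in WT and hardly in Tnfr2-/-. Alternatives covered pseudocounts of 0.5 and 5, filters, rescaling, mouse as a block, and leaving out each library and each mouse.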

Additional observations from a re-analysis of the deposited data

Results flagged for a closer look

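Late minus early differences had opposite signs in the 2 genotypes for some genes. For Dcn the difference between the late and the early genotype effect was 1.81 on the log2 scale (adjusted p = 0.0403, limma), with a fall in WT and a rise in Tnfr2-/-. The call was lost on mouse means and in 14 of 20 fits without 1 library. Penk had a late minus early difference of -1.21 (WT mouse 1) and -1.73 (WT mouse 2) against 0.517 and 0.151 in knockout mice 1 and 2. The values of Brinp3 were -1.81 and -1.63 for WT against 0.835 and 0.687 for the knockout. The difference between genotypes was tested for neither. It is made of genotype differences, which the selection of both genes used, and Brinp3 was also chosen for this divergence. No rise of Penk was called in the knockout (adjusted p = 0.361, limma). Col3a1 (-1.72 and -0.314 in WT, 0.256 and 0.0927 in the knockout), Pdgfra and Twist1 had the same signs in all 4 mice, and for these 3 genes the difference between genotypes was not called (adjusted p = 0.374, 0.455 and 0.201). The rest of the fibroblast list did not have these signs in all 4 mice. Its mean changed by -0.656 and 0.0779 in WT and by 0.503 and 0.351 in the knockout, and Thy1 rose in all 4. With 2 libraries per group, single libraries could not be tested as outliers.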

How the results depend on the processing

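Over all alternatives the differences of Penk, Brinp3 and Arhgdib between genotypes kept their direction. Low levels made their size depend on the pseudocount. With 0.5 the late genotype difference of Brinp3 was 4.36, its WT change with time -2.11, its late minus early genotype difference 2.89, the WT change of Arhgdib -0.977 (adjusted p = 0.0498, limma), and 7 genes were called for the late minus early genotype difference in place of 20. With 5 the genotype differences over all days were 1.43 (Brinp3) and 1.58 (Arhgdib), those at the late days 3.21 (Penk), 2.3 (Brinp3) and 1.94 (Arhgdib), the WT change of Brinp3 -0.821, and the late minus early genotype differences 1.44 (Brinp3) and 0.6 (Arhgdib). Without a filter 1 gene was called between the Tnfr2-/- mice in place of 13, and 55 for the late minus early genotype difference.

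With the mouse as a replicate block, correlated within each mouse, 545 genes were called for genotype over all days and 47 for the late minus early genotype difference, and on mouse means 7 (all days), 0 (late days, limma, 1859 at an unadjusted p under 0.05), 1728 (WT over time), 1790 (Tnfr2-/- over time) and 1 (late minus early). The WT fall of Penk was called in both fits (adjusted p = 0.000686 and 0.00995). Leaving out single libraries or mice, the counts ranged from 146 to 1931 (genotype, all days), 19 to 2186 (genotype, late), 1043 to 2893 (WT over time), 2 to 3430 (Tnfr2-/- over time), 455 to 1048 (WT mice), 1 to 13 (Tnfr2-/- mice) and 0 to 136 (late minus early genotype difference). A fit that leaves out a mouse assumes that the lone mouse varies like the others. The change of Arhgdib ranged from -1.01 to -0.587 in WT and from -0.284 to 0.937 in Tnfr2-/-, and its late minus early genotype difference from 0.514 to 1.74. Scaling to the same sum moved the share called higher from 59.4% to 37% (genotype, all days), 59% to 43.4% (late), 57.7% to 46.3% (WT over time) and 51.2% to 39.4% (Tnfr2-/- over time).

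The correlations moved as well. With day means subtracted they turned to -0.267 (Penk with Col3a1), -0.242 (Penk with the fibroblast list), -0.167, -0.0804 and -0.0632 (Arhgdib with Col3a1, Pdgfra and the list) in WT, and to -0.854 (Penk with Pdgfra), -0.774 (Penk with the list) and -0.04 (Brinp3 with the list) in Tnfr2-/-. Without the 2 libraries farthest from the median they were -0.0176 (Brinp3 with Col3a1, Tnfr2-/-), 0.00887 (Brinp3 with the list, WT) and 0.845 (Arhgdib with the list, Tnfr2-/-). The cause was not tested. With 2 mice per genotype and no depth per library in the table, small differences could not be resolved.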
